A study of Mus musculus with 6 samples.

Results

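Glucose enters a cell through carriers of the Slc2a family, is phosphorylated by hexokinase and is split and oxidised to pyruvate by a linear chain of enzymes in the cytosol. Pyruvate is then either reduced to lactate and exported, or carried into the mitochondrion, where the pyruvate dehydrogenase complex turns it into acetyl-CoA and pyruvate carboxylase into oxaloacetate. The 43 genes described here are carriers, enzymes and regulators of this route in a mouse podocyte line, listed by symbol for their roles. A row with the listed symbol was found for 42 of them among the 21719 genes of the deposited table, and Pgam2 was not analysed here. Of the 42, 38 had enough reads to be tested.

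RNA was sequenced in 6 libraries from MPC5, a conditionally immortalised mouse podocyte line, all kept in high glucose, at a concentration the labels do not give. The 3 libraries labelled Setdb2KO come from cells with a knockout of Setdb2, known as a histone H3 lysine 9 methyltransferase, and the 3 labelled Setdb2WT from cells with the wild-type gene. The labels name no clone, guide or edited exon. Nor do they give the cultures behind each replicate, so the p-values reflect the spread of these libraries alone, and that spread may be technical. In podocytes, which cover the glomerular capillary with actin-rich foot processes, glycolysis is known to supply much of the ATP, and high glucose is used in culture to imitate the diabetic kidney.

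The libraries held 36461449 to 36761970 reads in the group labelled Setdb2KO and 36767396 to 37129174 reads in the group labelled Setdb2WT. Setdb2 itself had 17, 15 and 25 reads in the libraries labelled Setdb2KO, against 12, 10 and 9 in those labelled Setdb2WT, and did not pass the test (edgeR adjusted p = 0.0881). Its read count thus shows no loss in the libraries labelled Setdb2KO, and every direction below is that between the labels. Among markers of the podocyte, Wt1 and Lmx1b had at most 2 reads in any library, whereas Synpo, Podxl, Cd2ap and Kirrel were well covered. Of these, Podxl fell 10.2-fold, Kirrel 1.81-fold and Synpo 1.72-fold, and Cd2ap rose 1.53-fold. The largest fall of a podocyte marker tested was that of Npnt (19-fold), and the largest rise that of Dach1 (5.31-fold, to 1.33 CPM under the label Setdb2KO). Of 16 podocyte markers tested 6 rose and 9 fell at an adjusted p under 0.05, where 41.5% and 42.3% of all genes tested did. The 16 markers summed to 1919 to 1980 CPM (counts per 1000000 reads, TMM-scaled) under the label Setdb2KO and 2668 to 2677 CPM under Setdb2WT. The same shares of all genes apply to the counts of the other markers below. All 6 mesangial markers tested fell, with sums of 32.0 to 34.4 CPM and 133 to 138 CPM, and 6 of 7 parietal epithelium markers fell, with sums of 1138 to 1213 CPM and 3209 to 3252 CPM, in the libraries labelled Setdb2KO and Setdb2WT in that order. Of 5 tubule markers tested 2 rose and 3 fell, with sums of 433 to 455 CPM and 1089 to 1104 CPM, and both fibroblast markers tested fell, with sums of 604 to 612 CPM and 2266 to 2346 CPM, nearly all from Vim, in the same order of labels. The 3 endothelial markers tested summed to 6.00 to 7.18 CPM under the label Setdb2KO and 9.56 to 10.01 CPM under Setdb2WT. Of these, Kdr and Ehd3 fell and Esam rose. Cdh5 and Emcn had at most 1 read in any library. Pecam1, also not tested, had 18, 12 and 9 reads under the label Setdb2KO and 3, 3 and 2 under Setdb2WT. The 3 immune markers tested summed to 11.1 to 13.8 CPM under the label Setdb2KO and 14.2 to 15.4 CPM under Setdb2WT. Of these, Csf1r fell and Cd68 and Cd79a rose. Ptprc had at most 5 reads in any library. Itgam, also not tested, had 12, 9 and 13 reads under the label Setdb2KO and 0, 0 and 0 under Setdb2WT. The part of such marker differences in the results below was not tested, and in bulk RNA fewer cells of a type and less RNA per cell cannot be told apart.

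Most of the glycolytic chain was lower in the libraries labelled Setdb2KO. Of the 38 genes tested, 25 fell, 11 rose, and Aldoc and Mpc2 did not pass (edgeR quasi-likelihood test, Benjamini-Hochberg adjusted p under 0.05 over all 13509 genes). Among all genes tested 42.3% were lower and 41.5% higher, 83.8% in all, so that a call alone sets few genes apart here. When the change had to exceed 1.5-fold (edgeR's glmTreat), 20 of the 38 were lower and 4 higher, against 23.1% and 22.3% of all genes, 45.4% in all. Scaling by total reads, which moved the median of all genes by 0.15 on the log2 scale, put 8 of the 38 higher beyond 1.5-fold. The median log2 fold change was -0.85 over the 38 and 0.0045 over all genes tested. The libraries of the groups lay apart without overlap in 35 of the 38, 25 lower and 10 higher, against 42.7% and 42.0% of all genes.

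The 42 genes together took 7296, 7507 and 7230 of every 1000000 reads in the libraries labelled Setdb2KO, against 13481, 13464 and 13576 in those labelled Setdb2WT. The groups did not overlap. Pkm, which encodes the muscle-type pyruvate kinase of the last step, alone supplied 2356, 2432 and 2334 reads per 1000000 under the label Setdb2KO and 4008, 3947 and 4020 under Setdb2WT.

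**Figure D1:**
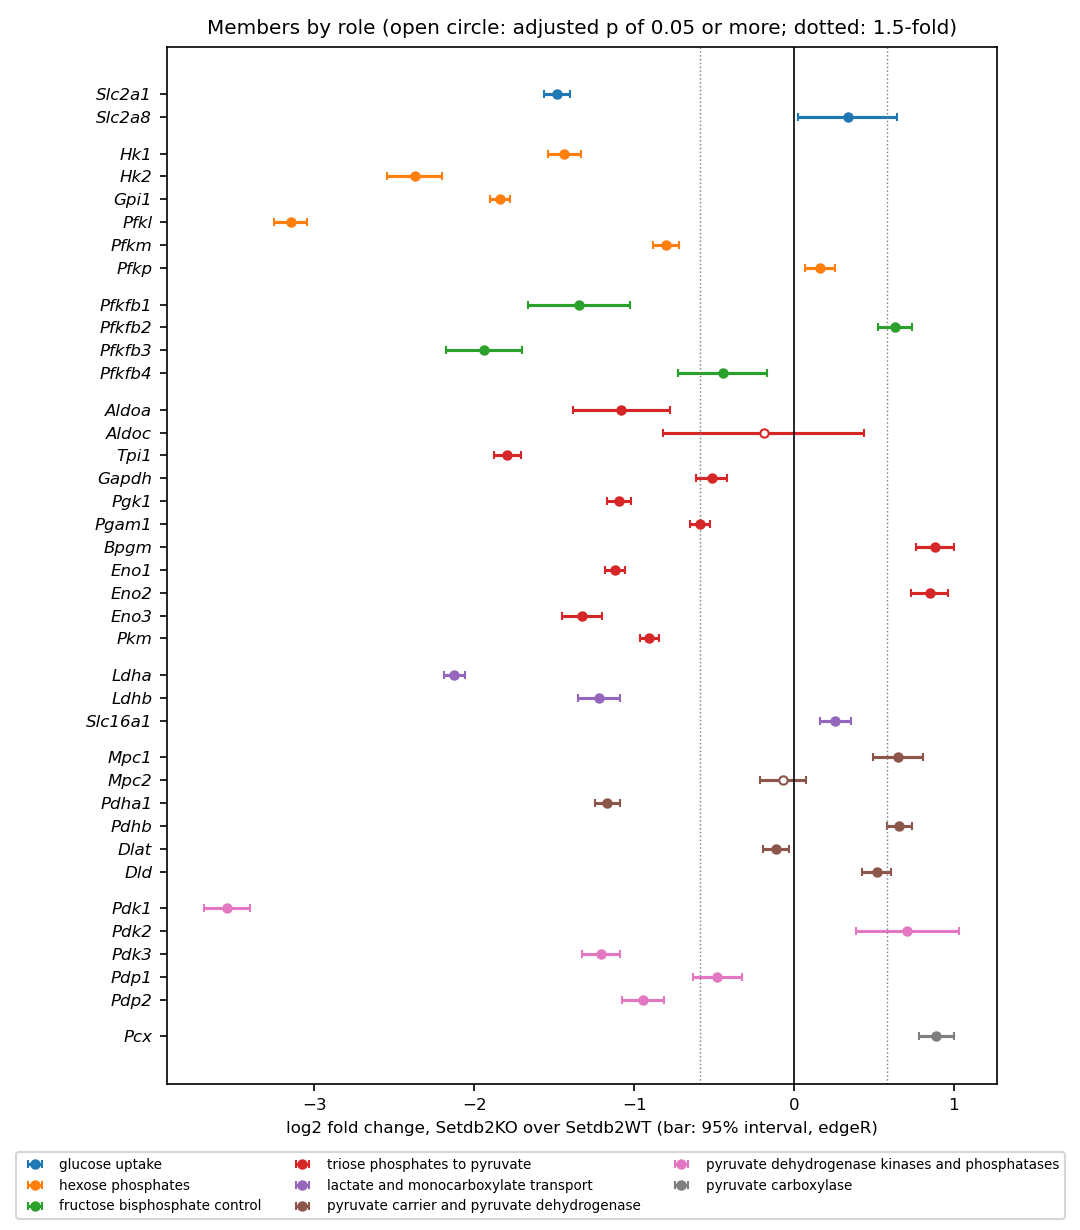
Log2 fold change of each of the 38 genes tested, Setdb2KO over Setdb2WT, with the 95% interval from edgeR's fit, grouped and coloured by role. Points left of 0 are lower in the libraries labelled Setdb2KO, open circles did not pass the test, and dotted lines mark a 1.5-fold change. Pdk1 (-3.55) and Pfkl (-3.15) lie farthest left, and Pcx (0.89), Bpgm (0.88) and Eno2 (0.85) farthest right.

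The sequences before the transcription start are shown for the 4 genes that fell most and for 2 that rose, because hypoxia-inducible factor (HIF), a known activator of many of these genes, binds the letters ACGTG or GCGTG. They are 250 bases that end just before a RefSeq start site on GRCm38.p6, written 5′ to 3′ on the strand of the gene. Capitals mark ACGTG or GCGTG on either strand. A stretch in capitals that reads CACGTG is also the E-box bound by Myc and other basic helix-loop-helix factors, and holds ACGTG on both strands.
Pdk1, chr2:71872974-71873223, plus strand: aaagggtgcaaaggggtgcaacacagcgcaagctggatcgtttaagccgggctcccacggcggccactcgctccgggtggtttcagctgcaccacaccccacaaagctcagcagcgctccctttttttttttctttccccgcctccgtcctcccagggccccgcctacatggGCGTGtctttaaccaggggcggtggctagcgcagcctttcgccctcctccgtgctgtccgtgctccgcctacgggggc
Pfkl, chr10:78009808-78010057, minus strand: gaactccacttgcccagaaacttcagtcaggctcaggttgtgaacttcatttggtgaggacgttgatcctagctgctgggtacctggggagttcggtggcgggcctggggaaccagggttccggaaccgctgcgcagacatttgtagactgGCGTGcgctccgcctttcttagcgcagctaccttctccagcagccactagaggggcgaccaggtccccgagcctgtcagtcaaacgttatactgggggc
Ldha, chr7:46845554-46845803, plus strand: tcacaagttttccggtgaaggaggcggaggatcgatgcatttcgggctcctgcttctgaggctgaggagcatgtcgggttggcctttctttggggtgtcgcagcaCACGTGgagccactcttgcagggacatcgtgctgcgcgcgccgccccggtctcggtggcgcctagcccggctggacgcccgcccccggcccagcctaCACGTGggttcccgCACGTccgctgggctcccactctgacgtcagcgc
Hk2, chr6:82774455-82774704, minus strand: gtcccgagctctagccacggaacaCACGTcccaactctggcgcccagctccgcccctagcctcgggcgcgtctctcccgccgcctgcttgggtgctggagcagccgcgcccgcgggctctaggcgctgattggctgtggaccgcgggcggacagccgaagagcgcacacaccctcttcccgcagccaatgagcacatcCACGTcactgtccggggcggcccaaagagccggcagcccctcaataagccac
Pcx, chr19:4510222-4510471, plus strand: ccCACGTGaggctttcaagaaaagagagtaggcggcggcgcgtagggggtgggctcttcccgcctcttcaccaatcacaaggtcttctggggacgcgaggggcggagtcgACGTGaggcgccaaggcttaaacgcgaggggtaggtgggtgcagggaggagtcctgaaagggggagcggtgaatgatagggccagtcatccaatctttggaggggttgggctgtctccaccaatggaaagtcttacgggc
Eno2, chr6:124769674-124769923, minus strand: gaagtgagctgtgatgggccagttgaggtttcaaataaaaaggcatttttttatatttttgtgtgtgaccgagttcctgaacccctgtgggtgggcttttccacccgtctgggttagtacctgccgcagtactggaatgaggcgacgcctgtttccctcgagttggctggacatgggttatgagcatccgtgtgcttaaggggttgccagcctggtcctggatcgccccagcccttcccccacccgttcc

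Ldha had 3 such stretches, starting 145, 48 and 34 bases before the start site, of which the first and second are CACGTG. Hk2 had 2, starting 226 and 52 bases before it, and Pcx, which rose, also had 2, at 248 and 140 bases, of which the first is CACGTG. Pdk1 and Pfkl, with the deepest falls, each had a single GCGTG and no ACGTG. Eno2 had neither.

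Over all 37 tested genes with a RefSeq promoter, 31 (83.8%) held ACGTG or GCGTG, against 61.1% of 10661 tested genes of the table that had one. For ACGTG alone it was 16 (43.2%), against 23.9% of all, and for CACGTG 7 (18.9%), against 9.2%. By direction, ACGTG or GCGTG was present in 21 of 24 that fell (87.5%) and 8 of 11 that rose (72.7%). Among all tested genes with a promoter it was present in 62.2% of those that fell and 61.5% of those that rose. ACGTG alone was present in 11 of 24 that fell (45.8%) and 5 of 11 that rose (45.5%), against 22.77% and 25.57% of all. CACGTG stood in 3 of 24 that fell (12.5%) and 4 of 11 that rose (36.4%), against 8.38% and 10.57% of all. The counts for CACGTG rest on few genes, and a link to direction was not tested. Where a gene has several start sites, the window with most such letters was taken, by the same rule for every gene. Genes with more listed sites thus had more chances to hold the letters, and the numbers of sites were not compared. The median GC content was 61.6% in the 37 and 60.4% in all. A match of letters is a description of the window and not a binding site.

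Of the 4 glucose carriers listed, Slc2a1 held 87.7% to 90.8% of their reads per kilobase of exon under the label Setdb2KO and 96.4% to 96.9% under Setdb2WT. Slc2a1, the widely expressed facilitative carrier GLUT1, had 1887, 1995 and 1870 reads in the libraries labelled Setdb2KO, against 4788, 5016 and 4785 in those labelled Setdb2WT. The groups lay far apart, and the gene fell 2.80-fold (log2 fold change -1.48, SE 0.04, edgeR adjusted p = 1.3e-13). Slc2a3, the neuronal GLUT3, had 1 read over all 6 libraries, and Slc2a4, the insulin-dependent GLUT4, had 0, 0 and 1 reads in the libraries labelled Setdb2KO and 1, 2 and 9 in those labelled Setdb2WT. Neither could be tested. Slc2a8, an intracellular carrier, had 175, 212 and 239 reads in the libraries labelled Setdb2KO and 148, 169 and 133 in those labelled Setdb2WT. Once scaled the groups overlapped, and its log2 fold change of 0.34 passed narrowly (edgeR adjusted p = 0.0429). The call was lost with DESeq2's Wald test, with limma-voom, with no filter on low counts, with a replicate block and without either of replicates 2 and 3 labelled Setdb2KO or replicates 1 and 3 labelled Setdb2WT, with log2 fold changes of 0.22 to 0.35 in those fits.

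The 3 genes listed for trapping and isomerisation of glucose all fell, where 42.3% of all genes tested did. Hexokinase 1, the constitutive form (Hk1), fell 2.70-fold, to 72.0 ± 5.7 CPM in the libraries labelled Setdb2KO, against 195 ± 1.9 CPM in those labelled Setdb2WT (SD, n = 3 each). Hexokinase 2 (Hk2), the inducible form tied to growth and hypoxia, had 347, 364 and 277 reads in the libraries labelled Setdb2KO and 1557, 1584 and 1500 in those labelled Setdb2WT. It fell 5.18-fold (log2 fold change -2.37, SE 0.08, edgeR adjusted p = 2.2e-12). Within the hexokinase pair, its share of reads per kilobase of exon was 13.4% to 15.2% under the label Setdb2KO and 24.2% to 24.7% under Setdb2WT. Gpi1, the glucose-6-phosphate isomerase, had 5906, 5994 and 5996 reads in the libraries labelled Setdb2KO, against 19076, 19445 and 19608 in those labelled Setdb2WT, a 3.58-fold fall (edgeR adjusted p = 1.5e-15).

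Phosphofructokinase, the committed step of glycolysis, is a tetramer of liver (Pfkl), muscle (Pfkm) and platelet (Pfkp) subunits, and these genes moved apart. Pfkl had 1335, 1417 and 1208 reads in the libraries labelled Setdb2KO, against 10492, 10574 and 10779 in those labelled Setdb2WT. It fell 8.87-fold (log2 fold change -3.15, SE 0.05, edgeR adjusted p = 8.8e-16). Pfkm fell 1.74-fold, with 2140, 2101 and 2030 reads in the libraries labelled Setdb2KO, against 3311, 3330 and 3263 in those labelled Setdb2WT. Pfkp had 2910, 2844 and 2668 reads in the libraries labelled Setdb2KO and 2353, 2267 and 2205 in those labelled Setdb2WT, 1.12-fold higher (edgeR adjusted p = 0.00296), and did not pass against the 1.5-fold limit. Pfkl thereby supplied 18.3% to 20.1% of the family's reads per kilobase under the label Setdb2KO and 57.4% to 58.6% under Setdb2WT, and Pfkm 59.7% to 61.5% and 35.4% to 36.3% in that order of labels. Per kilobase, Pfkm led in every library labelled Setdb2KO and Pfkl in every library labelled Setdb2WT. Without division by length the lead under the label Setdb2KO passed to Pfkp, with a mean of 45.2% of reads against 33.6% for Pfkm, whose exons span 3.34 kb where those of Pfkp span 13.4 kb.

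The Pfkfb genes encode bifunctional enzymes that make and degrade the small activator of phosphofructokinase. They moved in both directions. Pfkfb3, the form with the highest kinase to phosphatase ratio, had 254, 240 and 178 reads in the libraries labelled Setdb2KO, against 789, 723 and 823 in those labelled Setdb2WT, and fell 3.83-fold (edgeR adjusted p = 6.5e-10). Pfkfb1 fell 2.54-fold and Pfkfb4 1.36-fold, both at under 10 CPM. Pfkfb2, the heart-type form, rose 1.55-fold, with 1612, 1678 and 1615 reads in the libraries labelled Setdb2KO and 966, 947 and 957 in those labelled Setdb2WT (edgeR adjusted p = 1.8e-08), though it did not pass against the 1.5-fold limit. It held 67.1% to 69.3% of the family's reads per kilobase under the label Setdb2KO, against 35.7% to 38.9% under Setdb2WT. Exons of Pfkfb2 share 25.0% of their 50-base runs with its neighbours Gm29427 and Yod1, and the part of these in its reads was not tested.

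**Figure D2:**
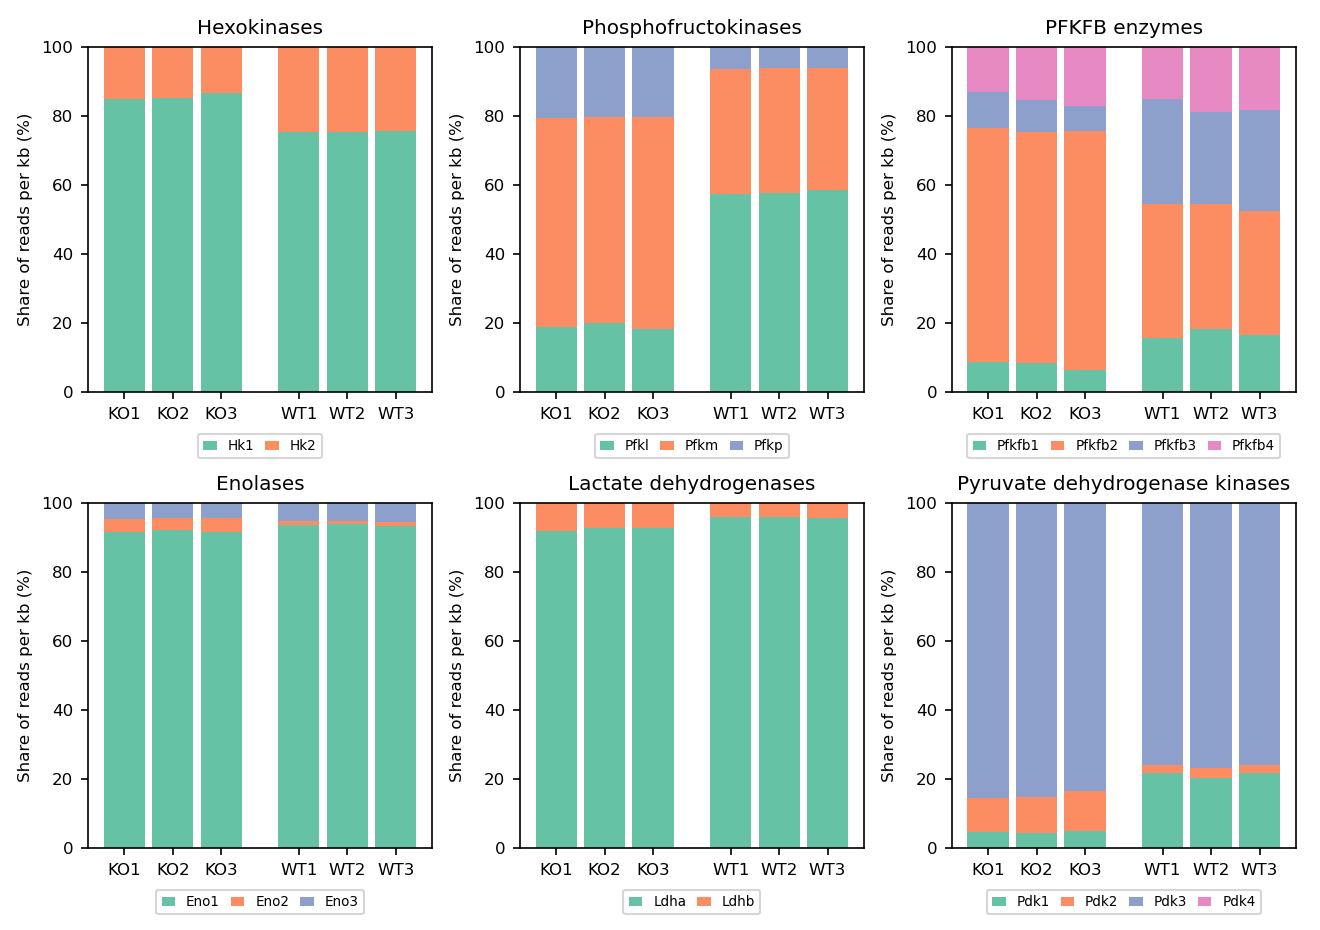
Share of each gene in the reads per kilobase of exon of its family, in percent, for the 3 libraries labelled Setdb2KO (left bars) and the 3 labelled Setdb2WT (right bars), in 6 families. Pfkl made up 18.3% to 20.1% under Setdb2KO and 57.4% to 58.6% under Setdb2WT, while Ldha made up 91.8% or more in every library.

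From the triose phosphates to pyruvate 8 of 11 genes tested fell, and Bpgm and Eno2 rose, where 42.3% and 41.5% of all genes did. Aldoc, the brain-type aldolase, did not pass (22 to 35 reads per library). Tpi1, which interconverts the triose phosphates, had 8808, 9224 and 8245 reads in the libraries labelled Setdb2KO, against 27684, 26846 and 28063 in those labelled Setdb2WT. It fell 3.47-fold (log2 fold change -1.79, SE 0.04, edgeR adjusted p = 2.3e-14). The kinase Pgk1, which makes the first ATP of the pathway, fell 2.14-fold, to 503 ± 25 CPM in the libraries labelled Setdb2KO, against 1075 ± 20 CPM in those labelled Setdb2WT. Pkm fell 1.87-fold, with 86116, 89414 and 85085 reads in the libraries labelled Setdb2KO, against 147934, 146540 and 147796 in those labelled Setdb2WT. Reads per gene do not tell its M1 and M2 splice forms apart. Gapdh and Pgam1, the dehydrogenase and the mutase between these steps, fell less, by 0.51 and 0.59 on the log2 scale, and did not pass against the 1.5-fold limit.

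The enolase genes did not all move the same way. Eno1, the ubiquitous form, had 44851, 46542 and 43336 reads in the libraries labelled Setdb2KO, against 87362, 89871 and 88241 in those labelled Setdb2WT, a 2.17-fold fall (edgeR adjusted p = 1.7e-13). Eno3, the muscle form, fell 2.51-fold. Eno2, the neuronal form, rose 1.80-fold, with 1624, 1568 and 1659 reads in the libraries labelled Setdb2KO and 846, 792 and 802 in those labelled Setdb2WT (log2 fold change 0.85, SE 0.05, edgeR adjusted p = 2.1e-09). Eno2 remained a small part of the family, 3.55% to 4.01% of reads per kilobase under the label Setdb2KO and 0.947% to 1.04% under Setdb2WT. Bpgm, the mutase that makes the haemoglobin ligand of red cells and bypasses the Pgk1 step, rose 1.84-fold, with 1905, 1951 and 1779 reads in the libraries labelled Setdb2KO, against 968, 927 and 875 in those labelled Setdb2WT (edgeR adjusted p = 1.7e-09).

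**Figure D3:**
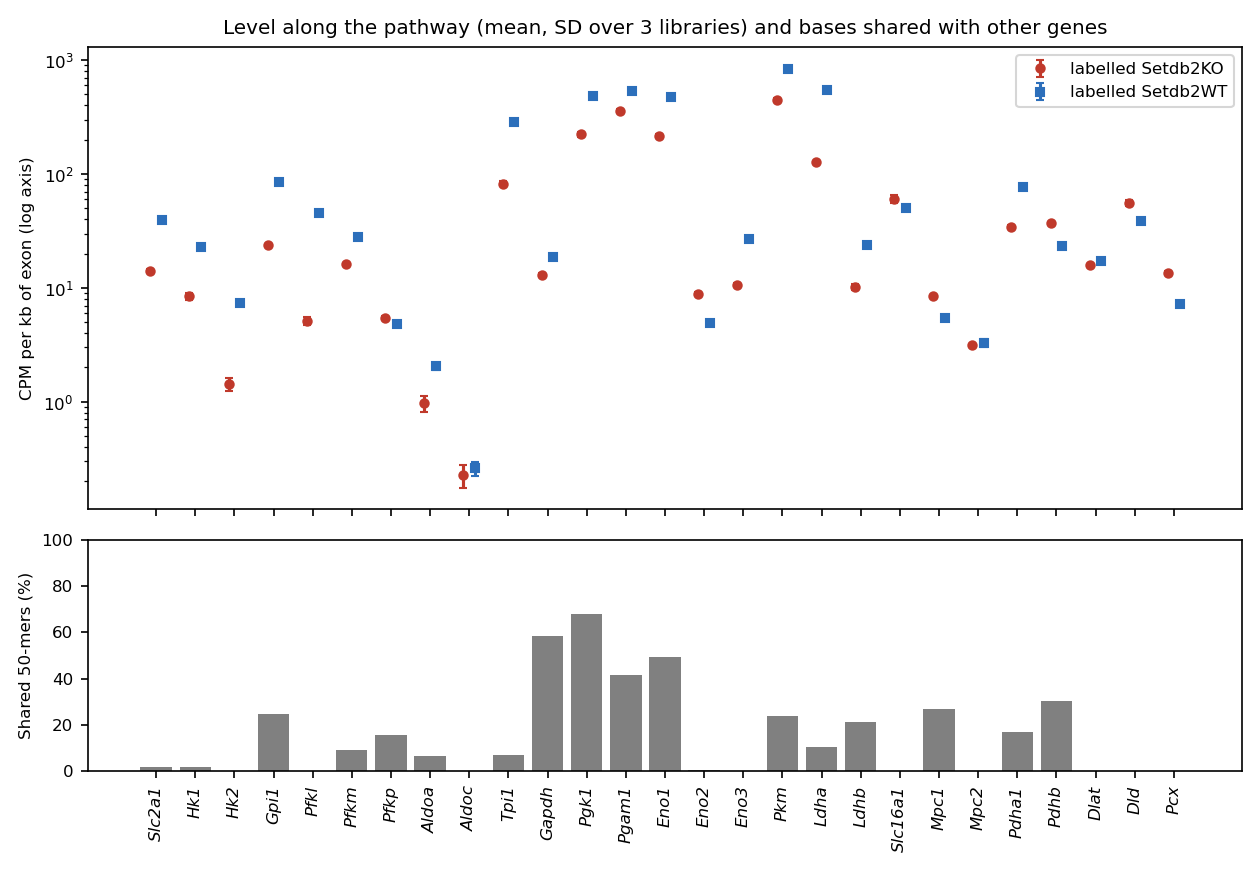
Upper panel, level of each gene in the order of the pathway, as CPM per kilobase of exon on a log axis (mean and SD of 3 libraries, circles for the label Setdb2KO and squares for Setdb2WT). Lower panel, percent of the 50-base runs of a gene's coding transcripts that also occur in a transcript of another gene. Aldoa and Gapdh sit far below their neighbours Tpi1 and Pgk1 in both groups.

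Several of these enzymes have processed copies elsewhere in the genome, and their counts are uncertain for that reason. Of the 50-base runs of their coding transcripts, Pgk1 shared 68.0%, Gapdh 58.4%, Eno1 49.5%, Pgam1 41.5% and Ldha 10.4% with transcripts of other genes in GENCODE M21. Gpi1 shared 24.45%, Pkm 23.73% and Ldhb 20.99%. Of the exon bases of Pkm 15.3% overlap Gm49759 on the same strand, and of those of Gpi1 11.5% overlap Gm26762 on the other. Gapdh had 2109, 2130 and 1954 reads in the libraries labelled Setdb2KO, against 2562, 2705 and 2757 in those labelled Setdb2WT. Aldoa, the main aldolase of most cells, had 126, 93 and 107 reads in the libraries labelled Setdb2KO, against 225, 198 and 202 in those labelled Setdb2WT, and fell 2.11-fold (edgeR adjusted p = 6.1e-06). Per kilobase of exon, Aldoa stood at 0.967 and Gapdh at 12.9 CPM per kilobase under the label Setdb2KO, where Tpi1, the enzyme between them, had 82.4. Under Setdb2WT the same 3 levels were 2.05, 18.5 and 286 CPM per kilobase. Aldoa shared 6.57% of its 50-base runs with other genes, and Tpi1 6.83%. GENCODE M21 holds 2 gene IDs under the symbol Aldoa, and the ID with most exon bases gave its length. The part of copies in the low counts of Aldoa and Gapdh was not tested. Adding the reads of the listed copies Eno1b, Aldoart1 and Aldoart2 to Eno1 and Aldoa left the counts of genes that rose and fell as they were. Of 22 tested genes with under 5% of shared runs, a limit chosen after the shares were seen, 13 fell and 7 rose, and the median log2 fold change was -0.46. Of the other 16, 12 fell and 4 rose, and the median was -0.99. Among all genes tested 42.3% fell and 41.5% rose. Pdk1, Hk2 and Pfkl, the 3 largest falls, shared 0%, 0% and 0.05%.

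At the branch to lactate, both dehydrogenase subunits fell and the exporter did not. Ldha, the subunit that favours the reduction of pyruvate, had 15779, 16828 and 15814 reads in the libraries labelled Setdb2KO, against 63602, 64251 and 63573 in those labelled Setdb2WT. No library labelled Setdb2KO came near the lowest of those labelled Setdb2WT. Its fall of 4.36-fold (log2 fold change -2.12, SE 0.03, edgeR adjusted p = 6.4e-16) exceeded that of Ldhb, the subunit that favours oxidation of lactate, which fell 2.33-fold to 16.1 ± 1.0 CPM under the label Setdb2KO, against 37.5 ± 1.0 CPM under Setdb2WT. Ldhb made up 7.15% to 8.17% of the pair's reads per kilobase under the label Setdb2KO and 4.05% to 4.25% under Setdb2WT, or a mean of 3.71% and 2.02% without division by length. Slc16a1, the proton-linked carrier MCT1, had 10290, 9632 and 11101 reads in the libraries labelled Setdb2KO and 7911, 7798 and 7822 in those labelled Setdb2WT, a log2 fold change of 0.26 (edgeR adjusted p = 1.1e-04) that did not pass against the 1.5-fold limit. Slc16a3, the MCT4 carrier of highly glycolytic cells, had 1 read over all 6 libraries.

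**Figure D4:**
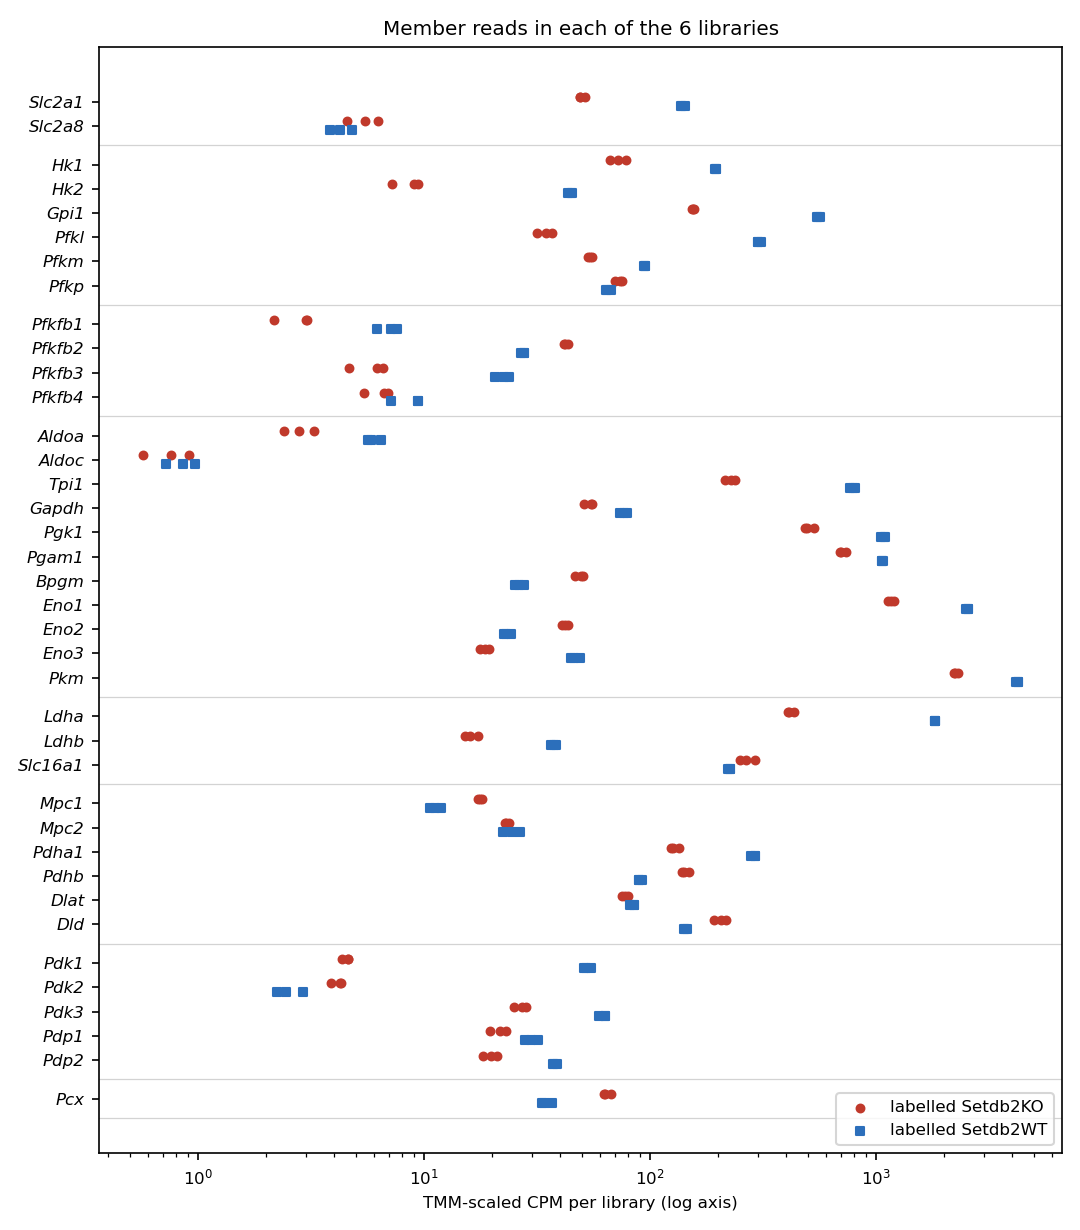
TMM-scaled CPM on a log axis of the 38 genes tested in each of the 6 libraries, circles for the label Setdb2KO above squares for Setdb2WT, in the order of the pathway. The groups overlap in Slc2a8, Aldoc and Mpc2 and lie apart in the other 35.

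Of 6 tested genes of the mitochondrial pyruvate carrier and the pyruvate dehydrogenase complex, 3 rose and 2 fell. Among all genes 41.5% rose and 42.3% fell, close to that split. The median log2 fold change of the 6 was 0.22. The carrier is a dimer of Mpc1 and Mpc2. Mpc1 rose 1.57-fold, with 671, 695 and 679 reads in the libraries labelled Setdb2KO and 371, 394 and 414 in those labelled Setdb2WT (edgeR adjusted p = 1.2e-06), while Mpc2 did not pass (log2 fold change -0.07, 95% interval -0.21 to 0.07, adjusted p = 0.338 in edgeR's test) and stood at 0.08 under scaling by total reads. The rise of Mpc1 did not pass against the 1.5-fold limit. Of the exon bases of Mpc1 23.1% overlap 4930506C21Rik on the other strand. Mpc1 shares 26.8% of its 50-base runs with other genes, among them 4930506C21Rik and Mpc1-ps. The part of those genes in the reads of Mpc1 was not tested.

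The pyruvate dehydrogenase complex is built from the decarboxylase subunits Pdha1 and Pdhb, the acetyltransferase Dlat and the dehydrogenase Dld. Pdha1, which carries the regulatory phosphorylation sites, had 4894, 4791 and 5121 reads in the libraries labelled Setdb2KO, against 10156, 10274 and 9742 in those labelled Setdb2WT. It fell 2.25-fold (log2 fold change -1.17, SE 0.04, edgeR adjusted p = 8.2e-13), and 16.2% of its exon bases overlap Map3k15 on the other strand. Its partner Pdhb rose 1.58-fold, with 5460, 5725 and 5320 reads in the libraries labelled Setdb2KO and 3223, 3146 and 3105 in those labelled Setdb2WT (edgeR adjusted p = 4.6e-10), and shares 30.3% of its 50-base runs with Gm6123. Per kilobase of exon, Pdha1 and Pdhb stood at 34.3 ± 1.3 and 36.9 ± 1.2 CPM per kilobase under the label Setdb2KO, and at 77.0 ± 1.7 and 23.4 ± 0.44 under Setdb2WT. The levels of these partner subunits were close under the label Setdb2KO, and that of Pdha1 was the higher under Setdb2WT. Dld, which also serves other dehydrogenase complexes, rose 1.43-fold (edgeR adjusted p = 3.4e-08). Dlat fell 1.08-fold (edgeR adjusted p = 0.0131), and under scaling by total reads its log2 fold change turned to 0.04 with no call.

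Among the kinases that switch the complex off was the largest change of the 38 genes. Pdk1, the HIF-induced kinase, had 178, 167 and 176 reads in the libraries labelled Setdb2KO, against 1820, 1794 and 1907 in those labelled Setdb2WT. It fell 11.7-fold (log2 fold change -3.55, SE 0.07, edgeR adjusted p = 5.9e-15). Pdk3 fell 2.31-fold, to 26.7 ± 1.7 CPM in the libraries labelled Setdb2KO, against 61.6 ± 2.1 CPM in those labelled Setdb2WT. Pdk2, the widely expressed kinase, rose 1.64-fold at a low level, with 150, 166 and 162 reads in the libraries labelled Setdb2KO and 78, 102 and 85 in those labelled Setdb2WT (edgeR adjusted p = 5.6e-04), and did not pass against the 1.5-fold limit. Pdk4, the kinase of fasting, had at most 1 read in any library. Pdk1 made up 4.30% to 5.07% of the kinases' reads per kilobase under the label Setdb2KO and 20.5% to 21.9% under Setdb2WT, or a mean of 12.8% and 45.1% without division by length, and Pdk3 led in all 6 libraries. The opposing phosphatases fell as well, Pdp2 by 0.94 and Pdp1 by 0.48 on the log2 scale.

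Pcx, pyruvate carboxylase, which feeds carbon into the citrate cycle, rose 1.86-fold, close to Bpgm and Eno2 and with no fixed order among these when single libraries were left out. It had 2442, 2600 and 2403 reads in the libraries labelled Setdb2KO, against 1187, 1297 and 1156 in those labelled Setdb2WT (log2 fold change 0.89, SE 0.05, edgeR adjusted p = 7.1e-10). With Bpgm, Eno2 and Pdhb it was among the 4 genes whose rise passed against the 1.5-fold limit.

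Among 21 tested genes of glucose use outside the 43, 16 fell and 5 rose, where 42.3% and 41.5% of all genes did. Beyond 1.5-fold 10 were lower and 2 higher, against 23.1% and 22.3% of all genes. The median log2 fold change of the 21 was -0.60. The phosphoglucomutase gene Pgm1, which links glycogen to glycolysis, fell 4.33-fold to 26.9 ± 0.95 CPM in the libraries labelled Setdb2KO, against 116 ± 3.6 CPM in those labelled Setdb2WT, and Pgm2 fell 2.73-fold. Acss2, which makes acetyl-CoA from acetate, fell 4.77-fold, Pck2, the mitochondrial phosphoenolpyruvate carboxykinase, 1.95-fold, and Emb, an accessory protein of MCT carriers, 1.84-fold. Hkdc1, a hexokinase-like gene named here after its values were seen, went the other way from Hk1 and Hk2. It had 140, 159 and 93 reads in the libraries labelled Setdb2KO, against 5, 4 and 10 in those labelled Setdb2WT, and rose 18.4-fold at a low level (edgeR adjusted p = 3.8e-08). Slc2a2, the GLUT2 carrier of liver and proximal tubule, had 0, 2 and 2 reads in the libraries labelled Setdb2KO and 128, 133 and 186 in those labelled Setdb2WT. Pgm1, Pgm2, Acss2, Pck2, Emb and Slc2a2 all passed, with edgeR adjusted p between 1.5e-14 and 3.7e-09.

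Of 15 known regulators of glycolytic genes tested, 9 rose and 5 fell, where 41.5% and 42.3% of all genes did, and the median was 0.31 on the log2 scale. Beyond 1.5-fold 3 were higher and 3 lower, against 22.3% and 23.1% of all genes. Txnip, a glucose-induced inhibitor of glucose uptake, had 20470, 21166 and 19800 reads in the libraries labelled Setdb2KO, against 5986, 5608 and 5685 in those labelled Setdb2WT, and rose 3.22-fold (edgeR adjusted p = 1.8e-14). Myc, a transcription factor that activates many glycolytic genes, rose 2.35-fold, and its partner Max by 0.58 on the log2 scale. Hif1a, the oxygen-regulated subunit of HIF, rose 1.55-fold to 449 ± 44 CPM in the libraries labelled Setdb2KO, against 289 ± 5.9 CPM in those labelled Setdb2WT, and its partner Arnt rose 1.45-fold. Esrra, a nuclear receptor of energy metabolism, fell 1.70-fold. These are RNA levels, and HIF is controlled mainly through the stability of its protein, which was not measured.

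HIF targets outside glycolysis moved in both directions, as did the genes of the whole table. Of 20 tested 8 rose and 10 fell, where 41.5% and 42.3% of all genes did. Bnip3l and Ddit4 did not pass, and the median log2 fold change of the 20 was -0.17. P4ha1 and P4hb, subunits of the collagen prolyl hydroxylase, fell 2.82-fold and 2.58-fold, and Bnip3, a mitophagy receptor, 2.87-fold. Kdm3a, a demethylase of histone H3 lysine 9, and Ero1a, an oxidase of the endoplasmic reticulum, rose 2.35-fold and 2.34-fold. Ndrg1, a stress-responsive protein, rose 2.06-fold. All 6 genes passed, with edgeR adjusted p between 3.9e-14 and 1.0e-12. Under scaling by total reads 10 of the 20 rose and 10 fell, where 6550 and 4833 of all 13509 genes did.

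**Figure D5:**
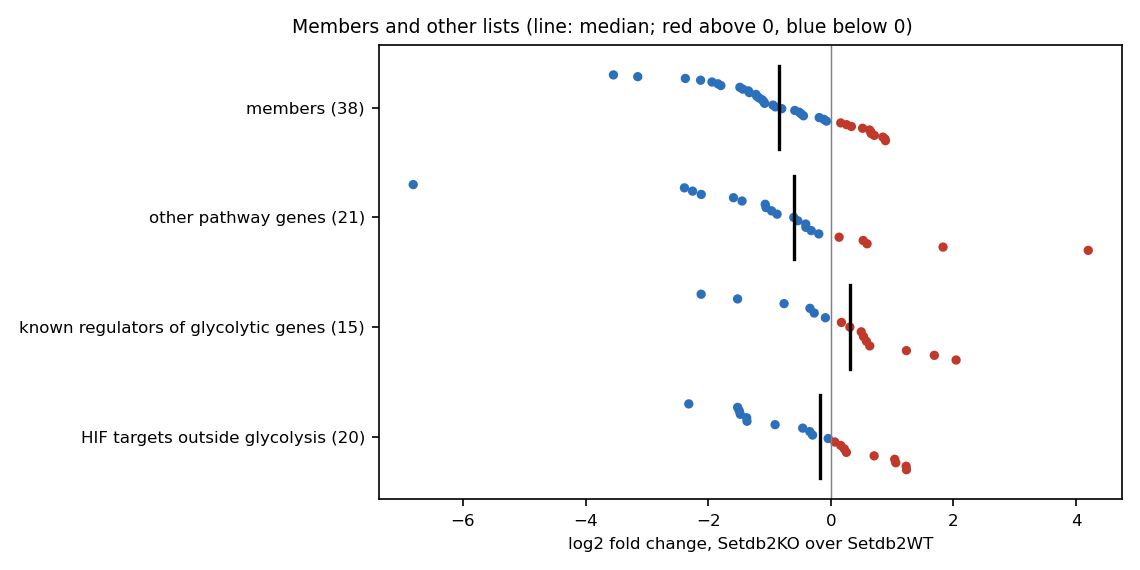
Log2 fold change, Setdb2KO over Setdb2WT, of the tested genes of 4 lists, 1 point a gene sorted by value, with the number of genes in parentheses and a bar at the median. Medians were -0.85 for the 38 genes of glycolysis, lactate and pyruvate entry, -0.60 for other genes of glucose use, 0.31 for known regulators and -0.17 for HIF targets outside glycolysis.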

How the data were processed

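The authors deposited unnormalised counts, whole numbers for each gene in each of 6 libraries. The submitters' processing notes name fastp, HISAT, HTSeq and GRCm39. Not given in the sources used here are the annotation, the strand setting and the handling of reads with several matches. Columns were matched to samples by genotype and number, and 0 columns stayed unmatched.

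Differences were tested in edgeR 4.0.16 (R 4.3.3) by the quasi-likelihood F test on all genes that passed filterByExpr at a minimum count of 10, with TMM scaling, genotype as the only term, a prior count of 0.125 and Benjamini-Hochberg adjustment at 0.05 over 13509 genes. glmTreat on the same fit tested against 1.5-fold. SE is that of the log2 fold change, and SD is over 3 libraries. Totals of 36461449 to 37129174 reads make counting error small except for genes with few reads. The script was checked on simulated counts before use, with 200 changed genes, fewer than were called in the data. The plain test recovered 43 of 50 genes changed 1.5-fold and 48 of 50 changed 2-fold, with 12 false calls among 13288 genes tested. The test against 1.5-fold recovered 0 of 50 and 37 of 50 in that order. A gene that did not pass against the limit may thus still have changed by more than 1.5-fold. Replicate numbers did not pair the libraries, as described with the alternatives. Within each group every pair of libraries differed by more than sampling noise, so none was treated as a repeat deposit.

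Levels between genes are CPM per kilobase of the union of a gene's exons in GENCODE M21 on GRCm38, a build that differs from the authors' own, so no gene or exon coordinates are printed. Sharing was counted over exact runs of 50 bases on both strands. Promoters and their coordinates come from RefSeq, GRCm38.p6, matched by Entrez ID for 39 of the 42 genes.

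The alternatives comprised scaling by total counts, by upper quartile or by DESeq2 size factors, limma-voom (limma 3.58.1), the Wald test of DESeq2 1.42.0, other filters, a replicate block, added copies and each library left out. The genes and lists were chosen with earlier results of these data known. Every one of the 43 is accounted for, and from each of the 3 lists of pathway genes, regulators and HIF targets up to 6 genes with the smallest adjusted p and a mean CPM of at least 1 are named. Marker genes, Hkdc1 and genes that did not pass were named outside that rule.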

Additional observations from a re-analysis of the deposited data

How the results depend on the processing

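Of 569 recomputed log2 fold changes of single genes, 558 kept their side of the threshold, 10 lost the call and 1 called value reversed; these concern Slc2a8 (8 lost, the replicate block among them at 0.33) and Dlat (2 lost with DESeq2 or without Setdb2KO replicate 1, and the reversal). Under total-count scaling Dlat turned to 0.0403, and Mpc2, not called in either, turned to 0.0839. Total-count scaling raised the count of genes higher by more than 1.5-fold to 8, and a limit of 2-fold brought it to 0. Leaving out each library in turn gave 24 to 25 genes lower and 10 to 11 higher, with 20 lower and 3 to 4 higher beyond 1.5-fold. The replicate block gave 25 lower and 10 higher, and 20 and 4 beyond 1.5-fold; deviations of same-numbered libraries correlated at 7e-04, -0.03 and -0.01, so the numbers do not pair them, and no library labelled Setdb2KO correlated best with its own number. Without Gapdh, Ldha, Pgam1 and Eno1 the summed reads per 1000000 were 4872 under the label Setdb2KO and 8302 under Setdb2WT. Without division by length, shares under Setdb2KO and Setdb2WT were 10.6% and 18.5% for Hk2, 21.2% and 65.6% for Pfkl, 3.43% and 0.895% for Eno2, 3.71% and 2.02% for Ldhb, and 12.8% and 45.1% for Pdk1; under Setdb2WT they were 96.9% for Slc2a1 and 34.1% for Pfkfb3. Depth limits Slc2a3, Slc2a4, Slc16a3 and Pdk4, which were not detectable above a few reads.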
